A study of Mus musculus with 6 samples.

Results

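Plasmacytoid dendritic cells (pDC) of the fatty, injured mouse liver were picked out of whole-liver single-cell RNA data by their transcripts. A cell barcode was kept as a member when it held at least 2 UMIs (unique molecular identifiers, each standing for 1 captured RNA molecule) of Siglech and at least 4 of Siglech, Ccr9, Cox6a2 and Klk1 together. Barcodes with any Cd3d, Cd3e or Cd3g UMI or more than 1 UMI of Cd79a and Ms4a1 together were left out, which removed 3 to 14 otherwise fitting barcodes per library. The rule found 232 members among 42682 barcodes that held 300 genes or more and no more than 20% of UMIs from mitochondrial genes. Control libraries 1, 2 and 3 gave 28, 29 and 28 members, and knockout libraries 1, 2 and 3 gave 85, 23 and 39.

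All mice carried floxed Sting alleles on both chromosomes. In the 3 knockout mice (Stingfl/fl Cdh5-Cre+) a Cre recombinase was driven by the promoter of Cdh5, the endothelial cadherin, and the 3 controls (Stingfl/fl Cdh5-Cre-) were littermates without it. Both groups ate chow until 8 weeks of age and then received a western diet with CCl4 (carbon tetrachloride, a liver toxin) for 12 weeks, a model of metabolic dysfunction-associated steatohepatitis (MASH). The series asks how loss of the DNA-sensing adaptor STING from endothelium changes liver immune cells. A Cdh5-driven Cre that is active before birth also reaches blood cells that arise from endothelium. The labels do not say whether this Cre was inducible, and deletion in pDC was not tested.

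pDC are bone-marrow-derived sentinels that recognise viral and self nucleic acids through endosomal Toll-like receptors and can release large amounts of type I interferon. Their development depends on the transcription factor TCF4 (E2-2), which holds them apart from conventional dendritic cells, where its antagonist ID2 is high. They share a secretory morphology with plasma cells and several lymphoid genes with B cells, and they present antigen less readily than conventional dendritic cells. In liver injury they are studied as a source of interferon.

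The 6 libraries held between 55017937 and 73867890 UMIs and 44656 recorded barcodes. By label the cells are sinusoidal endothelium, but the protocol dissociates liver without naming a sort for them, and 14486 barcodes met a T cell gate. Members had a median of 11104 UMIs and 3407.5 genes, with UMIs ranging from 1329 to 32586. The median UMIs per member were 11349, 6130 and 14070.5 in the controls and 11287, 11248 and 10892 in the knockouts, so control 2 was the shallowest. 2 members shared their barcode with a barcode of another library, and 0 shared it with another member.

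The genes of the rule and the marker Bst2 lie on 3 chromosomes in GRCm38 (GENCODE M21). Siglech is at chr7:55768178-55778925 on the plus strand and encodes a sialic-acid-binding lectin that pairs with an ITAM adaptor. Ccr9, at chr9:123678439-123784330 (plus), encodes the receptor for the gut chemokine CCL25. Cox6a2, at chr7:128205435-128206387 (minus), encodes a cytochrome c oxidase subunit best known from muscle, and Klk1, at chr7:44225360-44229618 (plus), a tissue kallikrein. Bst2, at chr8:71534255-71537456 (minus), encodes tetherin, which holds budding virions at the cell surface.

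TCF4 belongs to the E proteins, which bind E-box motifs such as CAGGTG, so the 250 bases before the annotated start of these co-expressed genes are shown. RefSeq windows (GRCm38.p6) matched 4 of the 5 genes, and Cox6a2 did not match. Capitals mark CAGGTG on either strand (CACCTG on the other) and, in Bst2, a match to the core of the interferon-stimulated response element. Each line reads 5′ to 3′ along the gene's strand.
Siglech promoter, chr7:55767934-55768183, plus strand: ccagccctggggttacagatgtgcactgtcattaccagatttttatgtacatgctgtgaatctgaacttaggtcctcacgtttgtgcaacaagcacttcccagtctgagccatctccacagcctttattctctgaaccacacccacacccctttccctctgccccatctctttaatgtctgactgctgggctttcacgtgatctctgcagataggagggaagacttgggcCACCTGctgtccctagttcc
Ccr9 promoter, chr9:123766961-123767210, plus strand: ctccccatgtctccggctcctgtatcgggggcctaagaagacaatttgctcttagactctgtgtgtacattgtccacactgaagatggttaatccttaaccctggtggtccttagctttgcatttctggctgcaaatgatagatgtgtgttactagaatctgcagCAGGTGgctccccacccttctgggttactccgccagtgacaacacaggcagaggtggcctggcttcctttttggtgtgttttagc
Klk1 promoter, chr7:44225110-44225359, plus strand: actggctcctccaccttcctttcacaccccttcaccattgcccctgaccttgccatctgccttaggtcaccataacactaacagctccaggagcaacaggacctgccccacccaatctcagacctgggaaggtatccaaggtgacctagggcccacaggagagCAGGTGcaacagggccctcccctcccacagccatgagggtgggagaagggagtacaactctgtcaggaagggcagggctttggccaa
Bst2 promoter, chr8:71537473-71537722, minus strand: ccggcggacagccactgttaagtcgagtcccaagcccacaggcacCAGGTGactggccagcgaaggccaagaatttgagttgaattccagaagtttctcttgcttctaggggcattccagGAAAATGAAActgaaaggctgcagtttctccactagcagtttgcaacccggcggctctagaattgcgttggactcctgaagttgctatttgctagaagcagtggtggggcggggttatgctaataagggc
The Ccr9 window lies inside the longer GENCODE gene, and the other 3 lie at or just before the gene's first base. Each of the 4 windows held 1 CAGGTG match, beginning 20 bases before the start in Siglech, 85 in Ccr9, 87 in Klk1 and 205 in Bst2. Over all 32851 windows of the same length, 17.2% held a CAGGTG match. Only the Bst2 window among the 4 held the response element core, which occurred in 2.98% of all windows. A match describes letters and shows no binding.

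The rule genes are given as a description, since they chose the members. Levels here are counts per 1e6 (CPM) of a library's summed pDC UMIs. Siglech stood at 1109.6, 810.4 and 805 CPM in the controls and 982, 1163 and 1012 CPM in the knockouts. Ccr9 stood at 751, 594 and 554 CPM in the controls and 675, 555 and 567 CPM in the knockouts. Cox6a2 stood at 697, 386 and 392 CPM in the controls and 495, 335 and 496 CPM in the knockouts, highest in control 1. Klk1 stood at 98.3, 29.1 and 151 CPM in the controls and 222, 159.9 and 147 CPM in the knockouts, lowest in control 2, and 98 of 232 members (42.2%) held a Klk1 UMI. In T cells, Siglech stood at 1.24 ± 1.05 CPM and Cox6a2 at 0.643 ± 0.499 CPM (SD, n = 6 libraries).

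Bst2, which the rule did not use, was present in 231 of 232 members and stood at 1852, 1355 and 1534 CPM in the controls and 2059, 1276 and 1661 CPM in the knockouts. The groups overlapped. After each cell was thinned to 1500 UMIs, 86.6% of pDC and 7.75% of T cells held a Bst2 UMI (99.6% and 26.0% before thinning). The median depth was 11104 UMIs in pDC and 5102 to 6468 per library in T cells. Tcf4 had a UMI in 93.1% of thinned pDC and 3.19% of thinned T cells, and Irf8 in 86.6% and 2.65%. Markers that the rule did not use thus set the members apart from T cells. Against cDC1, compared below, Bst2 and Tcf4 were called higher and Irf8 was not called.

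At the edge of the rule, 26 members held a sum of 4 or 5 and 206 a sum of at least 6. Over the pooled UMIs of each set, Tcf4 was at 1814 CPM inside the edge and 3311 CPM in the other members. Just outside, 39 barcodes had enough Siglech but a sum of 2 or 3, with Tcf4 at 1515 CPM and Ly6d at 102 CPM against 590.0 and 1627 CPM in the 2 sets of members. A further 18 barcodes had 1 Siglech UMI and a sum of at least 4, with Tcf4 at 568 CPM. These values are a description of where the threshold fell.

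**Figure D1:**
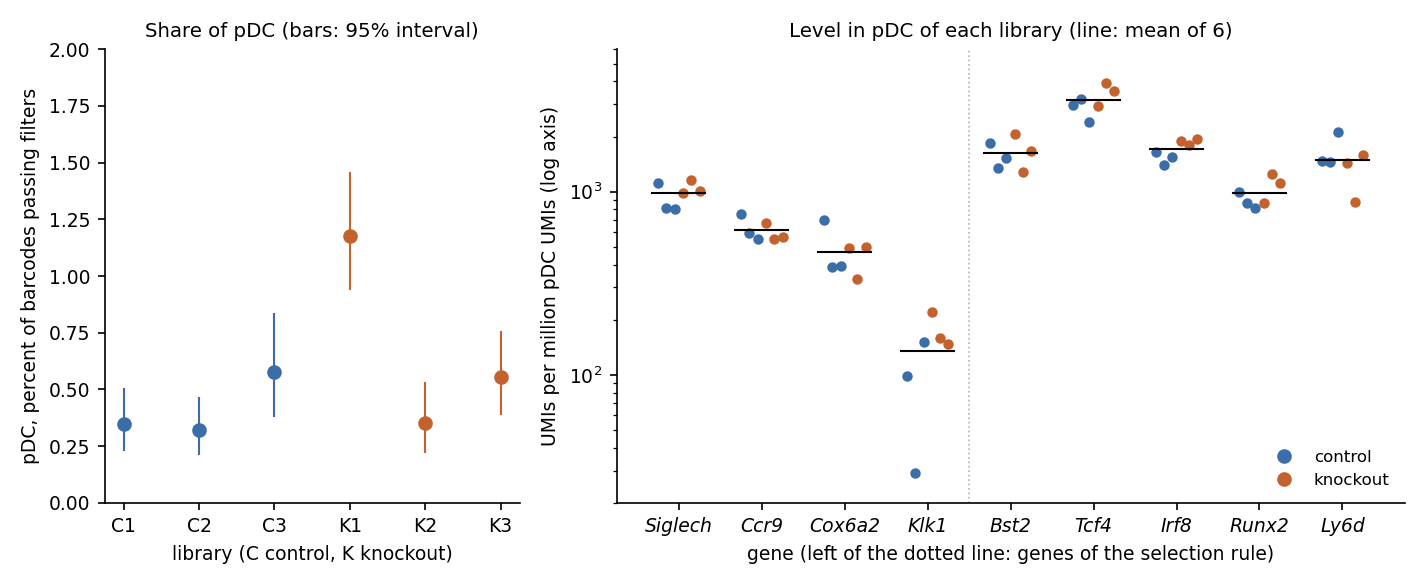
The left panel plots pDC as a percent of barcodes passing filters in each library (C control, K knockout; bars are 95% Clopper-Pearson intervals); knockout 1, at 1.18%, lies above the other 5, which span 0.322% to 0.576%. The right panel plots the CPM of 9 genes in the pDC of each library on a log axis, with the mean of 6 as a line; the 4 genes left of the dotted line chose the cells.

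To show what sets pDC apart, their summed UMIs were compared within each mouse with 3 neighbours in the immune family. Type 1 conventional dendritic cells (cDC1, 816 barcodes with Xcr1 or Clec9a) are antigen-presenting relatives. B cells (5805 barcodes with Cd79a and Ms4a1) share lymphoid genes, and plasma cells (165 barcodes with Tnfrsf17 and Sdc1, 9 to 45 per library) share the secretory habit. Every gene used to gate any of these cells was taken out before the fit. Values below are CPM as mean ± SD over 6 libraries, log2 fold changes with standard errors, and Benjamini-Hochberg adjusted p-values of edgeR's quasi-likelihood test. A gene was called at an adjusted p of at most 0.05 and a log2 fold change of at least 1 either way. The cells were chosen by transcripts, so the comparisons describe gated populations.

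pDC differed broadly from each neighbour. Against cDC1, 22.1% of the 8674 genes tested were called, 872 higher and 1044 lower. Against B cells, 24.7% of 9710 genes were called, 1221 higher and 1178 lower. Against plasma cells, 31.6% of 5435 genes were called, 907 higher and 812 lower. The balance depends on scaling in all 3. With plain library size in place of TMM, the share higher among called genes went from 45.5% to 60.1% for cDC1, from 50.9% to 60.5% for B cells and from 52.8% to 82.7% for plasma cells. The median log2 fold change of all genes moved from -0.028 to 0.16, from -0.033 to 0.098 and from -0.0018 to 0.61.

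The identity list of 30 pDC genes includes the 4 rule genes, which were left out. Of the other 26, the count filter passed 24, 24 and 23 for the tests against cDC1, B cells and plasma cells, and a gene can pass it through pDC alone. Of these, 20, 23 and 19 were called higher and 0 lower, where 10.1%, 12.6% and 16.7% of all genes were called higher and 12.0%, 12.1% and 14.9% lower. Ly6d, a GPI-anchored surface protein of early lymphoid cells, had lowest, median and highest levels of 875, 1463 and 2108 CPM in pDC and 0, 0.116 and 3.74 CPM in cDC1. It was higher than in cDC1 by 10.78 (standard error 0.40, adjusted p = 1.79e-07) on the log2 scale. B cells also held much Ly6d, at 653 ± 124 CPM, and the difference from them was 1.04 (standard error 0.094, adjusted p = 4.77e-07). Its ranges did not overlap with either, being 484 to 803 CPM in B cells. The call against B cells sat at the fold limit, with 0.99 without control 2 and 0.97 without control 3. Ly6c2 stood at 515, 807 and 932 CPM in pDC (lowest, median, highest) and was called higher than in cDC1 and B cells. Against plasma cells, which held 425 ± 152 CPM, it was not called, with a log2 fold change of 0.26 (standard error 0.32, adjusted p = 0.51). Reads of Ly6c2 and its near-identical neighbour Ly6c1 may be split by the counting. P2ry14, Mpeg1, Plac8 and Rnase6 of this list were not called against cDC1; Mpeg1, a pore-forming protein of phagocytes, stood at 447 ± 72.1 CPM in pDC and 455 ± 50.9 CPM in cDC1.

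A further 20 genes were named by rank, as those called higher than in all 3 neighbours, with a mean of at least 50 CPM in pDC and the largest fold over the nearest neighbour. Several of them are also on the identity list. The ranking chose them by the same fits, so their folds are a description. They included receptors (Clec10a, Klra17, Lair1, Cd300c, Cd209d, Il7r, Cd7, Lrp8), neuronal glutamate receptors (Grm8 and Gria3) and Dntt, the template-independent DNA polymerase of lymphoid receptor assembly. No gate for cDC2, monocytes or macrophages was compared, so these genes may be shared with such cells. Clec10a and Cd7 are also on a list of cDC2 genes. Of 5, 7 and 5 genes of that list tested against cDC1, B cells and plasma cells, 4 were called higher each time and 1 lower. Of 8, 9 and 6 transitional DC genes, 3, 5 and 5 were called higher and 2, 1 and 1 lower. Over all genes 10.1%, 12.6% and 16.7% were called higher. Lair1, an inhibitory collagen receptor, had lowest, median and highest levels of 321, 423 and 504 CPM in pDC, against means of 13.6, 5.47 and 2.21 CPM in cDC1, B and plasma cells. Cd300c stood at 177, 259.8 and 304 CPM, against 16.7, 1.87 and 0.278 CPM.

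Dntt stood at 40.7, 88.5 and 111 CPM in pDC. No Dntt UMI was found in cDC1, which puts pDC at least 372-fold higher against a floor of 3 UMIs over the group. B cells held 21 Dntt UMIs in all, a difference of 6.94 (standard error 0.36, adjusted p = 1.34e-09). Of the members, 108 (46.6%) held a Dntt UMI, against 0.166% of T cells, and after thinning 12.1% and 0.0139%. Grm8 stood at 149.6, 266 and 492 CPM in pDC, with 2 UMIs in all cDC1, and 60.3% of members held a UMI. Gm21762, a predicted protein-coding gene at chr13:120214593-120215947, stood at 233, 297 and 419 CPM, with 1 UMI in all cDC1 and 0 in plasma cells. Lrp8, a receptor for reelin and apolipoprotein E, stood at 252, 391 and 463 CPM, and Tex2, which carries lipids between membranes, at 528, 814 and 871 CPM. The log2 fold changes of Lrp8 were 5.40, 6.18 and 4.92, and those of Tex2 were 4.35, 4.73 and 4.38. Among the 20 genes, 14 matched a promoter window and 4 of these held CAGGTG, beside 5252 of all 27025 genes with a window. A link to TCF4 was not tested.

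Of 30 transcription factors tested against cDC1, 11 were called higher and 7 lower, with a median log2 fold change of 0.087, beside 10.1% and 12.0% of all genes. Tcf4 had lowest, median and highest levels of 2413, 3089 and 3918 CPM in pDC, 159, 172 and 195 CPM in cDC1, 283, 346 and 437 CPM in B cells and 453, 669 and 886 CPM in plasma cells. The ranges did not overlap with any neighbour. The log2 fold change was 3.99 (standard error 0.10, adjusted p = 4.85e-13) against cDC1, 3.01 (standard error 0.097, adjusted p = 3.1e-11) against B cells and 1.68 (standard error 0.09, adjusted p = 3.01e-09) against plasma cells, each in 6 of 6 mice. Runx2, a Runt factor known to guide pDC out of the bone marrow, stood at 816, 933 and 1248 CPM and was higher by 3.80 (standard error 0.14, adjusted p = 6.29e-11) than in cDC1. Zeb2, a repressor that acts on Id2, stood at 1329 ± 188 CPM against 129 ± 48.0 CPM in cDC1, a difference of 3.23 (standard error 0.20, adjusted p = 1.12e-06). Spib, an ETS factor of pDC and B cells, stood at 108 ± 24.4 CPM, with 1.16 ± 0.937 CPM in cDC1 and 65.5 ± 8.11 CPM in B cells. It was called against cDC1 (log2 difference 6.32, standard error 0.31, adjusted p = 3.58e-10) but not against B cells, where the log2 fold change was 0.62 (standard error 0.16, adjusted p = 0.00489). No Spib UMI was found in plasma cells, so pDC were at least 135-fold higher.

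Factors of the sister lineages were low in pDC. Id2 stood at 95.1, 165 and 219.9 CPM (lowest, median, highest) in pDC and 1623, 1866 and 2239 CPM in cDC1, a log2 fold change of -3.67 (standard error 0.23, adjusted p = 5.34e-06). Batf3, which cDC1 need, stood at 12.0 ± 11.8 CPM in pDC and 160.0 ± 11.9 CPM in cDC1 (log2 difference -3.86, standard error 0.31, adjusted p = 9.24e-07). The B cell factors Ebf1 and Pax5 stood at 21.4 ± 22.4 and 0.764 ± 1.20 CPM in pDC, with 3 Pax5 UMIs in all, and at 4298 ± 541 and 609 ± 107 CPM in B cells. Irf8, which both dendritic lineages use, had lowest, median and highest levels of 1400.5, 1716 and 1946 CPM in pDC and 1144, 1207 and 1428 CPM in cDC1, a log2 fold change of 0.26 (standard error 0.076, adjusted p = 0.0113), under the limit for a call. Bcl11a, needed for lymphoid and pDC development, stood at 201 ± 61.8 CPM in pDC and 206 ± 45.5 CPM in B cells and was not called between them (log2 difference -0.17, standard error 0.11, adjusted p = 0.231), while it was higher than in cDC1 by 1.75 (standard error 0.15, adjusted p = 1.57e-07).

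**Figure D2:**
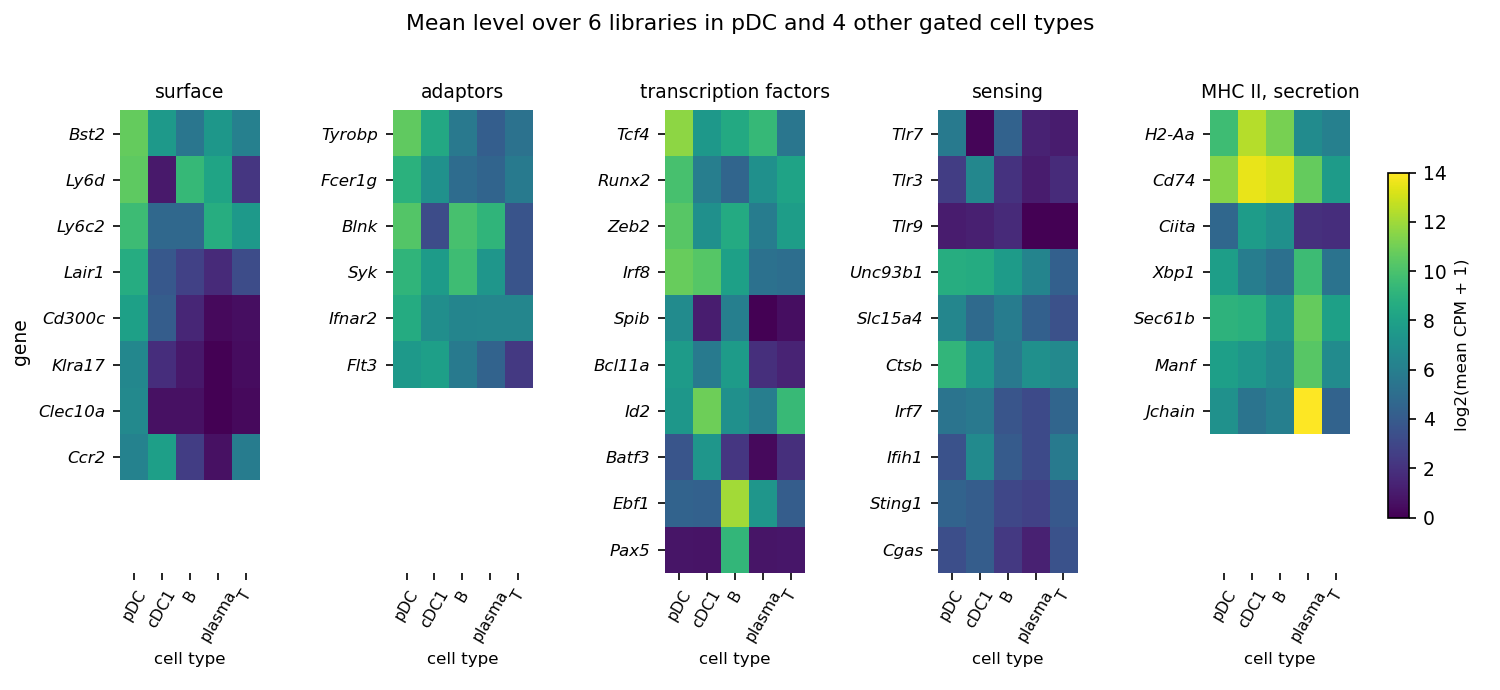
Colour gives log2(mean CPM + 1) over 6 libraries for genes (rows) in pDC, cDC1, B, plasma and T cells (columns), grouped by role. Tcf4, Runx2 and Zeb2 are brightest in the pDC column, Id2 and the class II genes in cDC1, Pax5 and Ebf1 in B cells and Jchain in plasma cells.

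A list of activating and inhibitory receptors with their adaptors was compared next. Of 27, 26 and 21 of its genes tested against cDC1, B cells and plasma cells, 14, 17 and 16 were called higher and 2, 2 and 3 lower, beside 10.1%, 12.6% and 16.7% of all genes called higher. Tyrobp (DAP12), the adaptor of Siglec-H, stood at 1072, 1567 and 1817 CPM in pDC and 268, 343 and 417 CPM in cDC1 (lowest, median, highest). These ranges did not overlap, and the log2 fold change was 1.94 (standard error 0.082, adjusted p = 8.17e-11). Fcer1g, the common Fc receptor gamma chain, was higher than in cDC1 by 1.69 (standard error 0.11, adjusted p = 1.15e-08). Blnk, the B cell linker that pDC use below these adaptors, stood at 929.6, 1217 and 1449.5 CPM in pDC, 859, 972 and 1116 CPM in B cells and 2.15, 5.13 and 28.5 CPM in cDC1. It was thus shared with B cells, where the difference was 0.17 (standard error 0.095, adjusted p = 0.157), and near absent from cDC1 (log2 difference 7.14, standard error 0.48, adjusted p = 4.07e-05). Syk, the kinase between adaptor and linker, stood at 574 ± 127 CPM in pDC, higher than in cDC1 (log2 difference 1.27, standard error 0.13, adjusted p = 2.67e-06) and not called against B cells (log2 difference -0.65, standard error 0.091, adjusted p = 3.36e-05). Fcgr2b, the inhibitory IgG receptor, was called lower than in all 3 neighbours, with log2 fold changes of -1.33, -1.30 and -1.02. The call against plasma cells was lost under most other settings, among them plain library size (-0.42) and leaving out control 1 (-0.84), control 2 (-0.95), knockout 2 (-0.96) or knockout 3 (-0.93). Ifnar2, a chain of the type I interferon receptor, stood at 342, 378 and 472 CPM and was called higher than in each neighbour (1.50, 2.13 and 1.65).

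Of 16 homing and chemokine receptor genes tested against cDC1, 2 were called higher and 2 lower, near the 22.1% of all genes called, so this count says nothing particular of the list. S1pr4, a lymphocyte receptor for sphingosine 1-phosphate, was among those called higher, with a log2 fold change of 1.91 (standard error 0.30, adjusted p = 7.81e-05). Ccr2, the receptor for CCL2, went the other way, at 72.7 ± 38.4 CPM in pDC and 238 ± 47.4 CPM in cDC1 (log2 difference -1.87, standard error 0.19, adjusted p = 5.65e-06). Against B cells, 5 of 18 were called higher, among them Ccr2, Cxcr3, Itgb7 and Selplg, and 5 lower, namely Ccr6, Ccr7, Cxcr4, Cxcr5 and S1pr1, beside 12.6% and 12.1% of all genes. With plain library size 9 were called higher and 4 lower. Ccr7, which leads cells to lymph nodes, stood at 28.3 ± 25.6 CPM in pDC and 443 ± 54.2 CPM in B cells (log2 difference -4.29, standard error 0.52, adjusted p = 0.000837).

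Among the endosomal Toll-like receptors Tlr3, Tlr7 and Tlr9, Tlr7 was the receptor called higher than in all 3 neighbours. Tlr7, the receptor for single-stranded RNA, had lowest, median and highest levels of 29.1, 48.5 and 69.0 CPM in pDC and 15.7, 19.7 and 25.3 CPM in B cells, with 1 UMI in all cDC1. The ranges of pDC and B cells did not overlap, and the log2 fold change between them was 1.23 (standard error 0.19, adjusted p = 0.000108). Tlr9, the receptor for CpG DNA, was listed at 4 UMIs in all pDC and stood at 1.37, 2.16 and 0 CPM in cDC1, B and plasma cells, too low for a test. Tlr3, for double-stranded RNA, stood at 4.83 ± 4.50 CPM in pDC and 88.4 ± 20.2 CPM in cDC1 (log2 difference -4.36, standard error 0.33, adjusted p = 5.56e-08). Unc93b1, the chaperone that carries these receptors to endosomes, stood at 404, 419 and 436 CPM in pDC and 339, 375 and 445 CPM in cDC1, a log2 fold change of -0.056 (standard error 0.086, adjusted p = 0.623). Slc15a4, an endosomal transporter needed for interferon release by pDC, was higher than in cDC1 by 1.43 (standard error 0.16, adjusted p = 2.42e-06), and Ctsb, an endosomal protease, was higher than in each neighbour (1.65, 3.44 and 1.57). Irf5, which drives cytokine genes below the receptors, was lower than in cDC1, with a log2 difference of -1.62 (standard error 0.12, adjusted p = 2.52e-08). Irf7, the factor that switches on interferon genes, stood at 41.6 ± 19.6 CPM in pDC and 49.3 ± 5.23 CPM in cDC1 and was not called (log2 difference -0.44, standard error 0.23, adjusted p = 0.124). In the list of 25, 4 of 21 tested genes were called higher and 3 lower than in cDC1, beside 10.1% and 12.0% of all genes. The median log2 fold change of -0.045 turned to 0.14 with plain library size.

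Against cDC1, more cytosolic sensing genes were called lower than higher, though not Sting1 or Tbk1. Ifih1 and Zbp1 are also on the list of interferon-stimulated genes below, so the lists share members. Of 13 cytosolic sensing genes tested against cDC1, 1 was called higher and 7 lower, beside 10.1% and 12.0% of all genes. The median log2 fold change was -1.06 beside -0.028 over all genes. Against B cells 2 of 13 were called higher and 3 lower, beside 12.6% and 12.1% of all genes. Against plasma cells 2 of 8 were called higher and 4 lower, beside 16.7% and 14.9%. Ifih1 (MDA5), a sensor of long double-stranded RNA, stood at 10.8 ± 4.71 CPM in pDC and 102 ± 42.4 CPM in cDC1 (log2 difference -3.39, standard error 0.20, adjusted p = 2.25e-09). Cgas, the DNA sensor upstream of STING, held 21 UMIs in all and had a log2 fold change of -1.19 (standard error 0.40, adjusted p = 0.022) against cDC1. That call was lost with DESeq2 (adjusted p = 0.0653), without likely doublets (-0.98), and without control 3 (-0.99), knockout 1 (-1.11) or knockout 3 (-0.94). Tbk1, the kinase recruited by STING, was the gene called higher than in cDC1 (log2 difference 1.36, standard error 0.14, adjusted p = 1.43e-06). Sting1, the targeted gene, stood at 9.51, 20.8 and 15.9 CPM in the controls and 21.3, 21.9 and 38.8 CPM in the knockouts, from 3, 5, 6, 22, 7 and 18 UMIs. The 3 knockout values lay above the 3 control values, and the gene had too few UMIs for the genotype test. The labels do not say which exons were floxed, and 3′ UMIs outside a deleted exon would remain, so these counts check nothing about deletion. Against cDC1 the log2 fold change of Sting1 was 0.16 (standard error 0.27, adjusted p = 0.666).

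Type I interferon transcripts were at the detection limit. Over 14 Ifna genes, 0 UMIs were found among 2749688 pDC UMIs, which allows up to 1.09 CPM over the pooled UMIs and a UMI in up to 1.29% of members. The Ifna genes are near-identical copies, and reads that match several of them may be absent from the counts. Ifnb1 gave 10 UMIs in 2 members, 9 of them in 1 barcode of knockout 1. Of the other cytokines, Il12a, the p35 chain of interleukin 12, stood at 9.40, 19.7 and 55.6 CPM in pDC and 0, 0.231 and 1.35 CPM in cDC1 (log2 difference 5.48, standard error 0.53, adjusted p = 5.47e-07), and at 22.9 ± 2.95 CPM in B cells. Il12b, the p40 chain, was the reverse, with 10 UMIs in all pDC, 175 ± 60.3 CPM in cDC1 and a log2 fold change of -5.51 (standard error 0.39, adjusted p = 3.61e-07). Ccl4, an inflammatory chemokine, stood at 526, 852 and 826 CPM in the controls and 966, 965 and 943 CPM in the knockouts, with 718 ± 232 CPM in cDC1, from which it did not differ past the threshold (log2 difference 0.11, standard error 0.31, adjusted p = 0.811). It was higher than in B cells by 3.09 (standard error 0.14, adjusted p = 3.45e-09).

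Interferon-stimulated genes were more often called lower than higher against cDC1. Of 29 tested, 2 were called higher (Bst2 and Ifi27l2a) and 13 lower, beside 10.1% and 12.0% of all genes, with a median log2 fold change of -0.93. Usp18, a brake on the interferon receptor, had a log2 difference of -3.15 (standard error 0.44, adjusted p = 2.47e-05). Oasl1, an antiviral gene of the oligoadenylate synthetase family, had one of -2.69 (standard error 0.45, adjusted p = 0.00054), and Isg15, a ubiquitin-like modifier, of -1.87 (standard error 0.32, adjusted p = 0.000163). Isg15 levels in pDC ran from 0 to 20.8 CPM and in cDC1 from 15.0 to 43.3 CPM, so the ranges over libraries overlapped. Against B cells, 5 of 29 were called higher and 3 lower, near the 24.7% of all genes called there, with a median of 0.40. With plain library size 7 were called higher and 1 lower.

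MHC class II genes were low beside both antigen-presenting neighbours. Of 15 tested, 14 were called lower than in cDC1 and 12 lower than in B cells, beside 12.0% and 12.1% of all genes. In either comparison 0 were called higher (medians -2.71 and -2.33). H2-Aa stood at 523, 603 and 911 CPM in the controls and 942, 1323 and 518 CPM in the knockouts, with knockout 2 highest. In cDC1 its lowest, median and highest levels were 4793, 5720.4 and 6036 CPM and in B cells 1709, 2345 and 2694 CPM, both above all 6 pDC values. The log2 fold change was -3.05 (standard error 0.25, adjusted p = 0.000105) against cDC1 and -1.69 (standard error 0.21, adjusted p = 0.000458) against B cells. Cd74, the invariant chain, differed from cDC1 by -2.34 (standard error 0.15, adjusted p = 5.43e-06), and Ciita, the master regulator of these genes, by -3.27 (standard error 0.28, adjusted p = 4.55e-06). The costimulatory genes Cd86 and Cd40 were lower than in cDC1, with log2 differences of -1.75 (standard error 0.15, adjusted p = 3.85e-07) and -3.77 (standard error 0.42, adjusted p = 2.27e-06). Ctss, the protease that trims the invariant chain, was the list's member that was not lower (log2 difference 0.13, standard error 0.11, adjusted p = 0.352). Against plasma cells, 5 of 9 tested were called higher, beside 16.7% of all genes, among them H2-Aa at 2.24 (standard error 0.23, adjusted p = 1.16e-05).

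The secretory pathway of pDC lay between that of B cells and plasma cells. Of 40 genes of the translocon, folding and quality control, 38 were tested against B cells and 39 against plasma cells. Beside B cells 14 were called higher and 0 lower (median 0.81), where 12.6% and 12.1% of all genes were. Beside plasma cells 35 were called lower and 0 higher (median -2.48), where 14.9% and 16.7% of all genes were. Against cDC1, 2 of 37 were called higher and 1 lower, beside 10.1% and 12.0% of all genes. The cDC1 median of -0.0033 became 0.19 with plain library size. Xbp1, the factor that expands the endoplasmic reticulum, had lowest, median and highest levels of 151, 216 and 328 CPM in pDC, 25.5, 31.7 and 56.1 CPM in B cells, 48.4, 56.5 and 78.8 CPM in cDC1 and 586, 723 and 940.1 CPM in plasma cells. None of these ranges overlapped that of pDC, and the log2 fold changes were 2.56 (standard error 0.14, adjusted p = 1.8e-09) against B cells, 1.70 (standard error 0.14, adjusted p = 1.05e-07) against cDC1 and -2.37 (standard error 0.14, adjusted p = 8.13e-09) against plasma cells. Sec61b, a translocon subunit, was higher than in B cells by 1.65 (standard error 0.096, adjusted p = 4.35e-09) and lower than in plasma cells, with a log2 difference of -2.23 (standard error 0.1, adjusted p = 7.72e-10). Manf, an endoplasmic reticulum stress protein, followed it at 1.15 (standard error 0.12, adjusted p = 2.09e-06) and -3.06 (standard error 0.11, adjusted p = 1.95e-10). Jchain, which joins IgA and IgM, held 201 UMIs in pDC, of which 187 (93.0%) came from 1 barcode of control 2 that also held 776 Igkc UMIs. Without that library Jchain ranged from 2.16 to 9.68 CPM, against 21905 ± 3906 CPM in plasma cells.

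**Figure D3:**
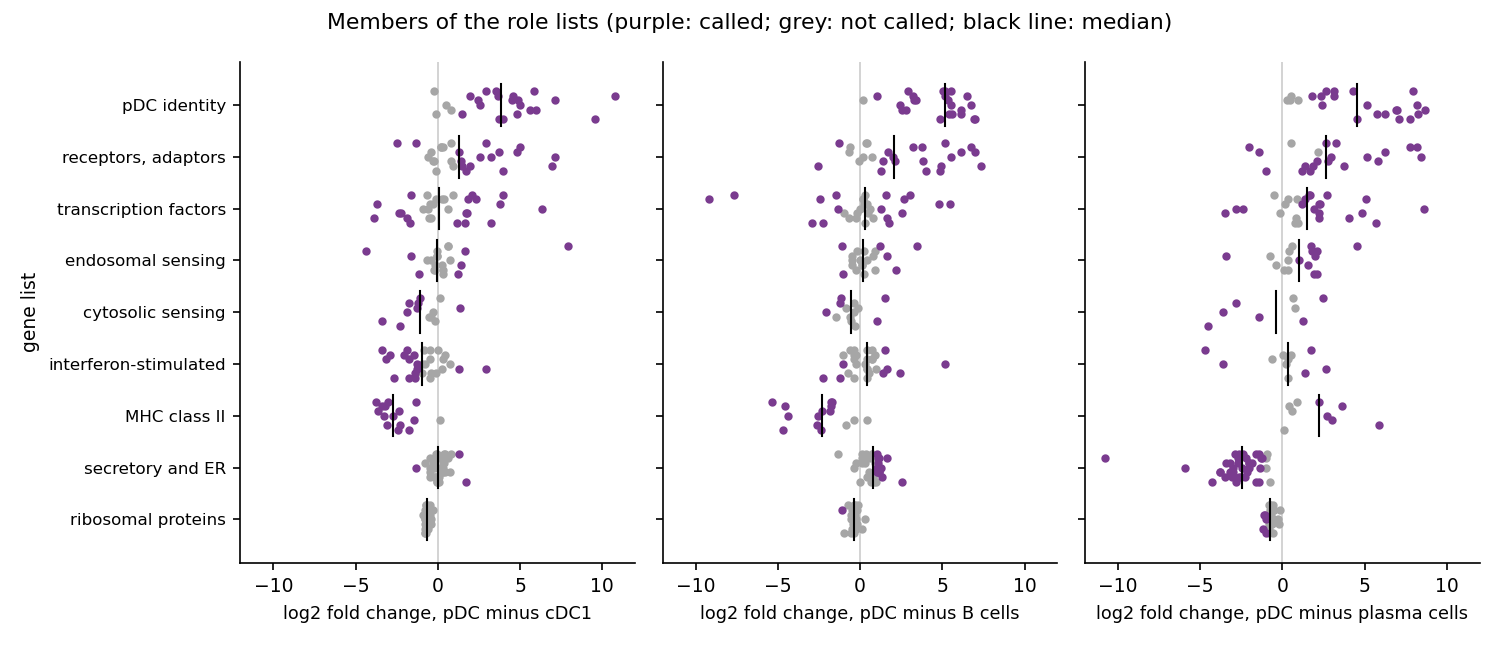
Each point is the log2 fold change of a tested gene of a role list, pDC minus cDC1, B cells or plasma cells; purple points were called and black lines are list medians. The class II list sits left of 0 against cDC1 and B cells, and the secretory list sits right of 0 against B cells and left against plasma cells.

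Housekeeping and handling genes were compared in the same way. The muscle-type subunit Cox6a2 chose the cells, while its ubiquitous counterpart Cox6a1 stood at 88.6 ± 20.3 CPM in pDC and 114 ± 14.1 CPM in cDC1 (log2 difference -0.58, standard error 0.14, adjusted p = 0.00249), and 0 of the 11 oxidase subunits tested, Cox6a1 included, were called against cDC1 or B cells. Against plasma cells 6 of the 11 were called lower, beside 14.9% of all genes. Of 24 ribosomal protein genes, 0 were called against cDC1, though all 24 had log2 fold changes below 0 (median -0.68), 1 was called lower against B cells and 5 against plasma cells. Of 24 dissociation and immediate early genes, 13 were called lower than in cDC1 and 9 lower than in B cells, beside 12.0% and 12.1% of all genes. In these comparisons 0 and 1 were called higher, and against plasma cells 1 was called higher and 0 lower. Handling-related transcripts thus moved with the comparisons against cDC1 and B cells. Their part in the differences above was not tested.

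The members were not uniform. The sum of the 4 rule genes ran from 4 to 77 UMIs with a median of 25. Cells with UMIs of at least 2 of 6 cell cycle genes made up 12.5% of pDC, 22.7% of cDC1, 1.40% of B cells and 37.0% of plasma cells. After thinning to 1500 UMIs these shares were 6.06%, 8.05%, 0.380% and 11.6%, with 3.21% in T cells. A Ccl4 UMI was held by 77.2% of pDC and 34.9% of T cells, and by 43.3% and 24.0% after thinning.

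Transcripts of other cells were checked by list. Over 10 T cell genes the members held 71.5 to 124 CPM per library, and over 7 hepatocyte genes 0 to 15.9 CPM. Of the 10 T cell genes 4 were at 0, among them Cd3d, Cd3e and Cd3g, which the rule itself kept at 0. Neutrophil genes stood at 1402 CPM in knockout 1 and 5.3 to 16.6 CPM elsewhere, with 62.7% of their UMIs in 1 barcode. Plasma cell genes stood at 3852 CPM in control 2 and 358 to 453 CPM elsewhere. The 10 stromal and epithelial genes stood at 187, 49.9 and 50.3 CPM in the controls and 861, 119 and 589 CPM in the knockouts. Other lists were more widespread. Endothelial genes stood at 399 to 805 CPM per library, with a UMI in 198 members. cDC2 genes stood at 420 to 713 CPM (221 members) and transitional DC genes, Zeb2 included, at 1726 to 2882 CPM (231 members). Macrophage and monocyte genes, Ly6c2 included, stood at 647 to 1033 CPM (203 members). A UMI of Clec9a, a cDC1 gate gene, was held by 34.1% of members, of Cd209a by 30.6% and of Pecam1 by 72.8%. The source of these UMIs was not tested. Scrublet scores in the top 6% of a library were held by 2, 0 and 0 members in the controls and 13, 2 and 6 in the knockouts.

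pDC made up 0.349%, 0.322% and 0.576% of barcodes in the controls and 1.18%, 0.354% and 0.553% in the knockouts. The 95% Clopper-Pearson interval of knockout 1 (0.942% to 1.46%) lay above those of the other 5 libraries, and it covers counting error only. Means were 0.415% ± 0.139 and 0.695% ± 0.430 (SD, n = 3), and the groups overlapped (two-sided exact permutation test, p = 0.4, smallest possible 0.1). The difference of 0.280 percentage points was 0.0379 without knockout 1. Of barcodes with a Ptprc UMI, the pan-leukocyte marker, pDC made up 0.579% ± 0.252 in controls and 0.888% ± 0.541 in knockouts (exact p = 0.6). A share of barcodes depends on how well every other cell type was recovered.

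Between genotypes, 0 of 5387 genes tested in pDC were called at an adjusted p of 0.05 by edgeR's quasi-likelihood test (0% called), 421 (7.82%) had an unadjusted p under 0.05 (3.53% higher and 4.29% lower in the knockouts), and DESeq2 called 3, Slpi and Kcnd2 among them. With 23 to 85 cells per library, the test recovered 79% of simulated log2 changes of 2 and 32% of simulated log2 changes of 1. The labels do not say whether a shared replicate number pairs libraries, and the check given with the processing does not settle it. With the replicate number as a block 11 genes were called, 9 higher and 2 lower in the knockouts. In the fit without the block, the count was 39 without control 1, 11 without knockout 2, 1 without control 3 or knockout 3, and 0 without control 2 or knockout 1. The genes called without control 1 included the mesothelial genes Msln and Upk3b, and those called without knockout 2 included Upk3b. How far transcripts of other cells made up these counts was not tested. Slpi, Cav1, Cenpf, Ect2 and Syne3, described next, were among the genes of smallest unadjusted p. None of the 5 was called over all 6 libraries by edgeR without the block. With a library left out, Slpi was called without control 1, knockout 2 or knockout 3, Cav1 without control 1 or knockout 2, Cenpf without control 3 and Ect2 without knockout 2.

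Higher in all 3 knockouts were Slpi, a secreted protease inhibitor of epithelia, and Cav1, the caveolar coat protein. Slpi stood at 91.9, 33.2 and 66.2 CPM in the controls and 381, 285 and 679 CPM in the knockouts, and the groups did not overlap (13.0% of all genes tested do not). The log2 fold change was 2.78 (standard error 0.40, adjusted p = 0.0729), and with the block its adjusted p was 1.37e-05. Cav1 stood at 6.34, 0 and 10.6 CPM in the controls and 58.1, 62.7 and 66.9 CPM in the knockouts (log2 difference 3.24, standard error 0.51, adjusted p = 0.0606, adjusted p with the block 0.00798). Epithelial transcripts moved with both, and their part in the result was not tested. A UMI of the mesothelial genes Msln, Upk3b or Krt19 was held by 1, 0 and 1 members of the controls and 9, 2 and 4 of the knockouts. These 17 of 232 members carried 10.9% of all pDC UMIs but 73.8% of the Slpi UMIs and 79.5% of the Cav1 UMIs. Without the members that held more than 5 UMIs of 12 genes of other cells, Slpi had a log2 fold change of 0.72 (adjusted p = 0.688), and Cav1 fell under the count filter.

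Lower in the knockouts were Cenpf and Ect2, which act in mitosis and cytokinesis, and Syne3, a nuclear envelope protein. Cenpf stood at 108, 95.6 and 29.1 CPM in the controls and 12.6, 15.7 and 8.63 CPM in the knockouts (log2 difference -2.60, standard error 0.49, adjusted p = 0.103, adjusted p with the block 0.00798). Ect2 stood at 60.2, 79.0 and 39.7 CPM in the controls and 9.68, 25.1 and 10.8 CPM in the knockouts (log2 difference -2.08, standard error 0.45, adjusted p = 0.175) and Syne3 at 69.7, 87.3 and 63.6 CPM in the controls and 23.2, 34.5 and 17.3 CPM in the knockouts (log2 difference -1.57, standard error 0.34, adjusted p = 0.175). The groups did not overlap for any of the 3 when all members were counted. For Cenpf this rested on 1 barcode of control 1, which held 31 of that library's 34 UMIs. Without it control 1 stood at 10.2 CPM, within the range of the knockouts. Of 9 cell cycle genes tested, 0 were called without the block and 1 with it (Stmn1, a microtubule regulator, log2 fold change -1.06, adjusted p = 0.0348 by edgeR). All 9 had log2 fold changes below 0 (median -0.67, beside 0.00074 over all genes). Of the 9, 5 had an unadjusted p under 0.05 (4.29% of all genes were lower by that measure) and 5 did not overlap (13.0% of all genes do not). Birc5, which protects dividing cells, had a log2 fold change of -1.42 (standard error 0.35, adjusted p = 0.271). The share of members with at least 2 of 6 cell cycle genes was 15.3% ± 3.96 in controls and 12.7% ± 5.45 in knockouts (SD, n = 3, exact permutation p = 0.7).

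Chemokine receptors held 2 more genes of small p. Groups without overlap, as given below, were found for 13.0% of all genes tested. Ccr2 stood at 47.6, 37.4 and 34.4 CPM in the controls and 91.0, 129 and 97.1 CPM in the knockouts, without overlap (log2 difference 1.39, standard error 0.30, adjusted p = 0.175). The 17 members with a mesothelial UMI held 5.07% of its UMIs. Ccr7 stood at 44.4, 33.2 and 68.9 CPM in the controls and 10.6, 0 and 12.9 CPM in the knockouts, again without overlap (log2 difference -2.42, standard error 0.55, adjusted p = 0.199), from 48 UMIs in the controls and 17 in the knockouts. A single barcode held 21 of the 26 Ccr7 UMIs of control 3, which stood at 13.8 CPM without it, next to knockout 3. Of the 26 identity genes that did not choose the cells, 24 were tested, 0 were called, 1 had an unadjusted p under 0.05 and the median log2 fold change was 0.17. Of 18 endosomal sensing genes the median was -0.087, of 11 interferon-stimulated genes 0.064 and of 10 class II genes 0.24, each with 0 called. Tlr7 stood at 44.4, 45.7 and 29.1 CPM in the controls and 51.3, 69.0 and 66.9 CPM in the knockouts, with groups that did not overlap (log2 difference 0.65, standard error 0.32, adjusted p = 0.654).

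**Figure D4:**
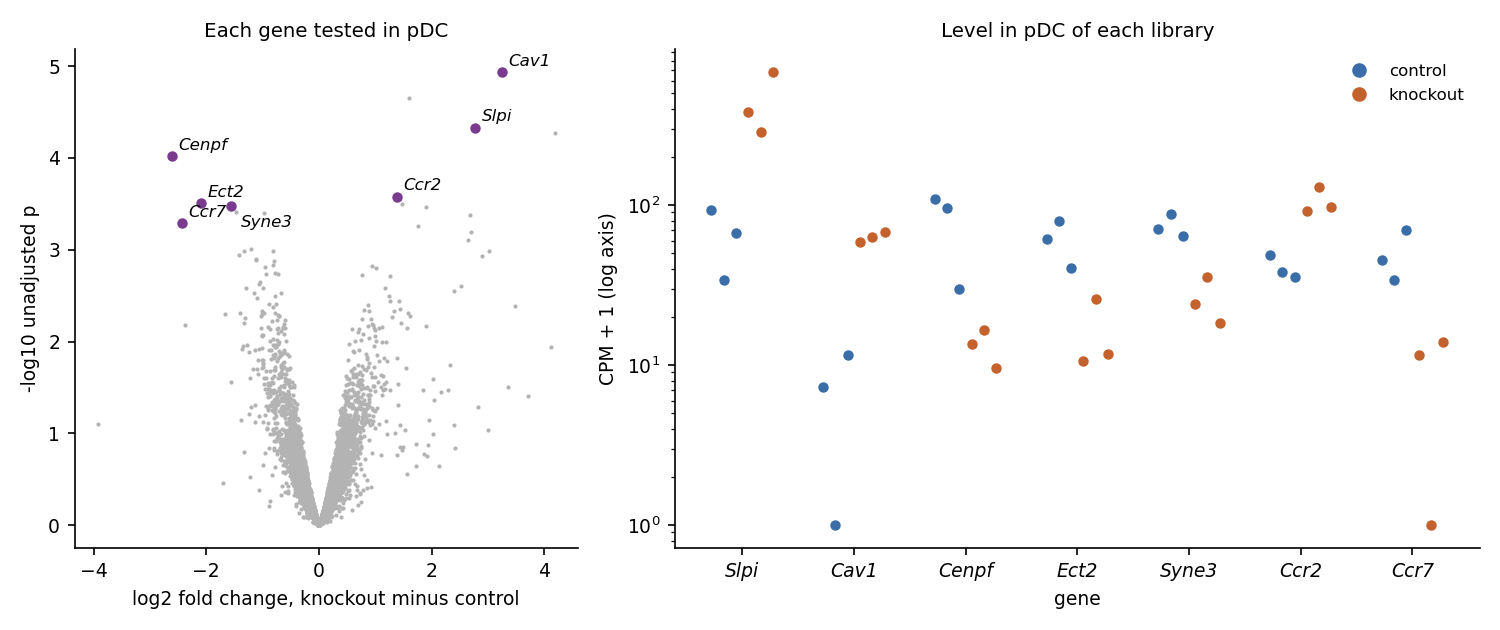
The left panel plots each of 5387 genes tested in pDC by log2 fold change (knockout minus control) and -log10 unadjusted p, with 7 genes named. In this fit, without the replicate block, 0 were called. The right panel plots CPM + 1 of these genes in each library on a log axis. The 3 controls and 3 knockouts do not overlap with all members counted. These genes were named for small p in the same libraries, and 13.0% of all genes tested do not overlap.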

How the data were processed

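Whole-liver cells of 6 mice were profiled by 10x 3′ single-cell RNA-seq, 1 library per mouse. Per the submitters' processing notes the authors used Cell Ranger 7.1.0 and Seurat 4.1.1 with the mm10 build, and the deposited values are raw UMI counts per gene and barcode. The annotation release and the cell-calling step are not given in the sources used here. Barcodes under 300 genes or above 20% mitochondrial UMIs were left out. pDC, cDC1, B, plasma and T cells were gated on raw UMIs, and no clustering was used. The members and the 28 gene lists were chosen with earlier results of these data known, and support nothing independently.

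UMIs were summed per library and cell type and tested with edgeR 4.0.16 (quasi-likelihood F-test, TMM scaling, filterByExpr, Benjamini-Hochberg adjustment) in R 4.3.3. Cell type comparisons had the mouse as a block and left out all gate genes. Genotype was fitted over the 3 control and 3 knockout libraries, 1 mouse each. Alternatives were DESeq2 1.42.0, other scalings, no low-count filter, stricter and looser gates, removal of likely doublets or mixed barcodes, leaving out each library, and the replicate block. Plain library size and the removal of mixed barcodes were added after the data were seen.

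The labels' replicate numbers match across genotypes. Deviations of same-numbered libraries from their group means correlated at 0.119, 0.227 and 0.169 over 2000 genes, each over 0.1. Those of libraries with unlike numbers correlated at -0.177 to 0.0514. The deviations within a group add up to 0, so these values depend on each other and do not settle whether the libraries are paired. The main genotype fit had no block, and the block was run as an alternative. The labels do not say what a shared number stands for.

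Doublets were scored with Scrublet (scanpy 1.11.5); its own threshold did not work in 2 libraries, so members with a score in the top 6% of their library were removed as an alternative. On simulated counts, the cDC1, B, plasma and genotype fits recovered 65%, 54%, 70% and 32% of log2 changes of 1. Recovery was counted at an adjusted p of at most 0.05 alone, without the fold limit of the cell type calls. Changed genes were drawn only from those above a minimum expected count. The shares for the cell type fits are therefore not those of the calls reported. Named genes were the rule genes and markers, list members, the 20 ranked genes, and for genotype the 3 of smallest p each way; some genes that these rules select are not reported here. Intervals are Clopper-Pearson at 95% and cover counting error only. Floors are 3 UMIs over the group. The promoter windows come from RefSeq (GRCm38.p6).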

Additional observations from a re-analysis of the deposited data

Results flagged for a closer look

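The share of pDC in knockout 1, 1.18% of barcodes, lay far above the other 5 libraries (0.322% to 0.576%) relative to their range. Among the members' genes, 6 had a library that stood apart in the same way. Ccl4, a chemokine, was low in control 1 at 526 CPM, against 826 to 966 CPM elsewhere. Ctss, a lysosomal protease, was low in control 2 at 249 CPM, and so was Tex2, a lipid carrier, at 528 CPM. Manf, an endoplasmic reticulum protein, was low in knockout 2 at 110 CPM, where Syk, a kinase below ITAM adaptors, was high at 821 CPM. Oasl1, an interferon-stimulated gene, was high in control 3 at 37.1 CPM, against 0 to 12.5 CPM elsewhere. In all, 6 of 49 genes looked at and the share stood apart, and chance flags about 1 in 20.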

How the results depend on the processing

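The counts of genes called against cDC1, B cells and plasma cells stayed within 1.5 times of the reported ones under every setting run, except that dropping the low-count filter gave 2915 against cDC1 and 3088 against plasma cells. The genotype count of 0 was 3 with DESeq2, 137 with no filter on low counts and 11 with the replicate block, and ran from 0 to 39 when each library was left out. It remained 0 with other scalings, the stricter gate, and without likely doublets or mixed barcodes. With the replicate number as a pairing the share of pDC differed with an exact permutation p of 0.5, and without the mouse as a block the cell type counts stayed within 1.5 times (1868, 2416 and 1715). The difference in median UMIs per pDC, 626 UMIs, ranged from -1567 to 2403 when each library was left out, reversing without control 2. Near-zero log2 fold changes against cDC1 also changed sign when libraries were left out: Ccl4 ranged from -0.061 to 0.36 (-0.061, -0.060 and -0.00067 without knockout 1, 2 and 3), Sting1 from -0.10 (without knockout 3) to 0.30, and Unc93b1 went to 0.13 with plain library size and 0.010 without mixed barcodes. The cause was not tested. The genotype comparison rests on 23 to 85 members per library.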
